A study of Mus musculus with 3 samples.

Results

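The collagens, the matrix metalloproteinases (MMPs) and the tissue inhibitors of metalloproteinases (TIMPs) were described in cultured mouse macrophages that lacked Angptl4. Members were all genes whose symbol in the array's annotation named a collagen chain, an MMP or 1 of the 4 TIMPs, which gave 70 of the 19938 genes on the array. They comprised 44 collagens, 22 MMPs and 4 TIMPs. Collagens are the structural proteins of connective tissue and basement membranes, built from chains that wind into triple helices, and fibroblasts and other stromal cells are their main source. MMPs are zinc-dependent proteases that cut collagen, elastin and many cell surface proteins, and TIMPs bind their active site and block them. Macrophages are known for secreting several MMPs into inflamed tissue and for taking up collagen fragments.

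Peritoneal macrophages from male Angptl4-/- mice of the C57Bl/6J strain, collected 3 days after an injection of 4% thioglycollate and kept in culture for 2 days, were exposed for 6 h to 1 of 3 conditions. The groups were PBS, intralipid (a triglyceride emulsion, 0.5 mM triglyceride), and intralipid at that dose on cells first kept for 1.5 h with recombinant mouse ANGPTL4, a secreted inhibitor of lipoprotein lipase, at 2.5 µg/mL. Each group was 1 Affymetrix array hybridised with RNA pooled from 3 samples, so no spread between cultures could be measured, no test was possible, and every statement describes these 3 arrays. All groups shared the Angptl4 deletion, and wild-type cells were not analysed here. The sources used here give neither the ages of the mice nor how many mice stood behind each pool.

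Values are log2 expression values, so that a difference of 1 is 2-fold. The floor of an array was the middle value of its annotated probe sets, which was 4.98 (PBS), 4.97 (intralipid) and 4.97 (intralipid plus ANGPTL4). It marks the middle of the array and is not a limit of detection. Values of different genes come from different probes, so a higher value of 1 gene than of another was not read as more transcript. Levels were set against the floor, sorted into bands and, for cell type markers, summed over genes. Of the 70 members, 39 reached the floor on at least 1 array, beside 10090 of all 19938 genes. The same 39 members did so on every array. They were 27 collagens, 9 MMPs and 3 TIMPs. Just inside lay Mmp24 with 4.98 on each array, and just outside lay Col5a3 with 4.95. Each of the 3 comparisons shares an array with the others, so their differences are not independent.

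The cultures carried the defining markers of macrophages. Of 12 macrophage markers, 11 reached the floor, with Lyz2 at 12.91 and Cd68 between 12.80 and 12.83, and only Cd163 stayed below it at 3.57. Of 12 fibroblast markers other than collagens, 5 reached it. With PBS these read 9.04 (Sparc), 8.98 (Fstl1), 8.51 (Dcn), 7.66 (Pdgfra) and 5.08 (Postn). Lum (2.57), Dpt (3.35), Pdgfrb, Thy1, Fbln1, Mfap5 and Fap did not reach it. Neutrophil markers had 1 of 10 past the floor, S100a8 at 5.86 on every array, and Ly6g, which defines the lineage in mice, was at 2.34. Mast cell markers had 0 of 7 and T and B cell markers 0 of 6 measured. Mesothelial markers had 2 of 10 (Krt8 and Wt1). Smooth muscle and pericyte markers had 3 of 7 (Acta2, at 9.39 with PBS, Tagln and Des). Endothelial markers had 3 of 8 (Vwf, at 7.59 with PBS, Kdr and Cldn5), and eosinophil markers 1 of 5 (Siglecf, at 7.51 with PBS). Over all genes, 10090 of 19938 reached the floor on at least 1 array. In RNA from a whole culture, fewer cells of a type and less RNA per cell cannot be told apart.

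The values of the collagens moved little over the arrays, and a few MMPs and TIMPs moved further. Over the 3 arrays, the highest and lowest values of the 27 collagens past the floor lay at most 0.19 apart, and 17 of them had 1 identical value on every array, meaning equal in every deposited digit (up to 9 decimals). Among the 12 MMPs and TIMPs past the floor, 1 was identical throughout (Mmp24) and the widest range was 2.55 (Mmp19). For comparison, 2530 of all 10090 genes past the floor were identical (25.1%), and the median range was 0.15. The median range was 0.00 for collagens, 0.11 for MMPs and 0.16 for TIMPs. For MMPs and TIMPs together it was 0.14, close to that of all genes. Different genes could also share a value, as Col11a2, Col4a1, Col6a2 and Col6a6 all read 5.65162 on every array. An identical value is therefore not taken as a measure of a stable transcript, and its origin was not tested. Many collagens had low values, and low values were often identical on these arrays. Of the 2389 genes past the floor with a mean below 6, 42.8% were identical. In that band, 13 of the 21 collagens and 1 of 1 MMPs and TIMPs were. From 6 to 8, 24.5% of 4643 genes were identical, and so were 4 of 4 collagens (Col3a1, Col5a2, Col6a1 and Col26a1) and 0 of 6 MMPs and TIMPs. From 8 to 10, 12.8% of 2429 genes were identical, and 0 of 2 collagens (Col1a1 and Col1a2) and 0 of 1 MMPs and TIMPs were. At 10 or more, 9.22% of 629 genes were identical. That band held 0 collagens and 4 MMPs and TIMPs (Mmp12, Mmp14, Mmp19 and Timp2), 0 of them identical. Most collagens thus lay in lower bands than most MMPs and TIMPs, and the part of level in their different ranges was not tested.

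**Figure D1:**
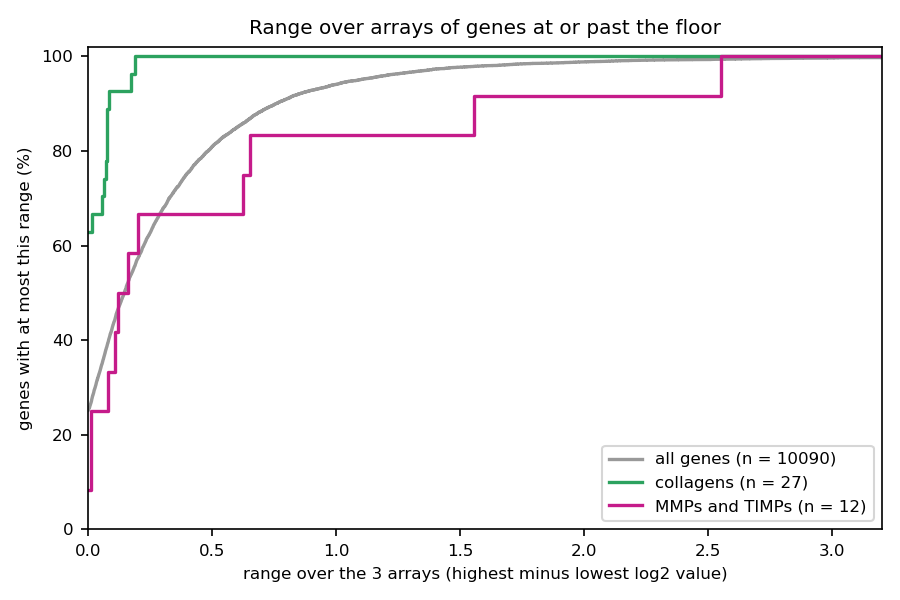
Cumulative share of genes (vertical axis, %) by the range of a gene's log2 values over the 3 arrays (horizontal axis), for all 10090 genes at or past the floor, the 27 collagens and the 12 MMPs and TIMPs. The collagens end at 0.19, whereas the MMPs and TIMPs have steps out to 2.55.

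Exposure to intralipid went with a higher value of 1 member, Mmp19, by 4.73-fold. Mmp19 is a secreted MMP able to cut components of basement membranes. Of the 39 members past the floor, 1 was at least 2-fold higher with intralipid than with PBS, beside 2.51% of all 10049 genes so measured, and 0 were at least 2-fold lower, beside 1.32%. At 1.5-fold, the count was 1 higher (5.07% of all genes) and 1 lower (5.57% of all genes). The lower one was Mmp14, the membrane-anchored collagenase MT1-MMP, which cuts fibrillar collagen at the cell surface and activates the precursor of Mmp2 together with Timp2. The median difference of the 27 collagens was 0.00, that of the 9 MMPs 0.00 and that of the 3 TIMPs -0.09, and the median of all genes was 0.00.

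Mmp19 (probe set 10367400) read 9.80 with PBS, 12.04 with intralipid and 9.49 with ANGPTL4 added. The intralipid array thus stood above both others. The differences were 2.24 for intralipid against PBS, -2.55 for ANGPTL4 against intralipid alone (5.86-fold lower) and -0.31 for ANGPTL4 against PBS. Among all genes measured, Mmp19 ranked 54th from the highest in the first comparison and 40th from the lowest in the second.

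Mmp14 (probe set 10415052) read 11.16 on the PBS array, 10.30 with intralipid and 11.86 with ANGPTL4. Its order of arrays was the opposite of that of Mmp19, with the lowest value on the intralipid array and the highest with ANGPTL4. It was 1.81-fold lower with intralipid than with PBS, 2.94-fold above intralipid alone with ANGPTL4, and 1.62-fold above PBS with ANGPTL4. Its rank from the highest was 65th for ANGPTL4 against intralipid and 179th for ANGPTL4 against PBS. The macrophage markers did not share 1 order of arrays. Msr1, a scavenger receptor, read 10.02, 9.36 and 10.56 on the arrays with PBS, intralipid and intralipid plus ANGPTL4. Csf1r, the receptor for macrophage colony-stimulating factor, read 10.87, 10.59 and 11.38, and Adgre1 read 10.93, 10.81 and 11.12. Msr1, Csf1r and Adgre1 were all in the order of Mmp14. Mertk, a receptor for the uptake of dying cells, read 9.76, 9.83 and 9.39, in the order of Mmp19. Fcgr1, an Fc receptor, read 9.54, 9.07 and 8.53, and Cd14, the co-receptor for lipopolysaccharide, 9.07, 11.17 and 10.34. Fcgr1 was thus lowest with ANGPTL4, by 1.01 against PBS, and Cd14 was highest with intralipid. Summed over all 12 on the linear scale, the macrophage markers came to 31854, 32761 and 33605. Markers with high values weigh most in this sum, and of these Ctss (13.02) and Lyz2 (12.91) were identical on all arrays. The part of the macrophage markers in the differences of Mmp14 and Mmp19 was not tested.

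With ANGPTL4 against intralipid alone, 1 member was at least 2-fold higher (Mmp14), beside 2.53% of all 10064 genes, and 1 at least 2-fold lower (Mmp19), beside 2.30%. At 1.5-fold, 3 members were higher (Mmp14, Mmp9 and Timp1), beside 8.26% of all genes, and 1 was lower (Mmp19), beside 4.95%. The 3 higher members were 7.69% of the 39, near the share of all genes. All of these were MMPs or TIMPs, and 0 of 27 collagens reached 1.5-fold in either direction. Of the 27 collagens, 21 had a mean below 6. In that band 3.56% of all genes had a range of 1 or more over the arrays, against 8.03% from 8 to 10.

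With ANGPTL4 against PBS, 0 members were 2-fold higher, beside 0.850% of all 9995 genes, and 0 were 2-fold lower, beside 0.0400%. At 1.5-fold, 2 members were higher (Mmp14 and Timp1), beside 2.37%, and 0 were lower, beside 0.530%. On the array with ANGPTL4, Mmp19 lay 0.31 below its PBS value, and Mmp14 and Timp1 lay 0.70 and 0.62 above theirs.

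**Figure D2:**
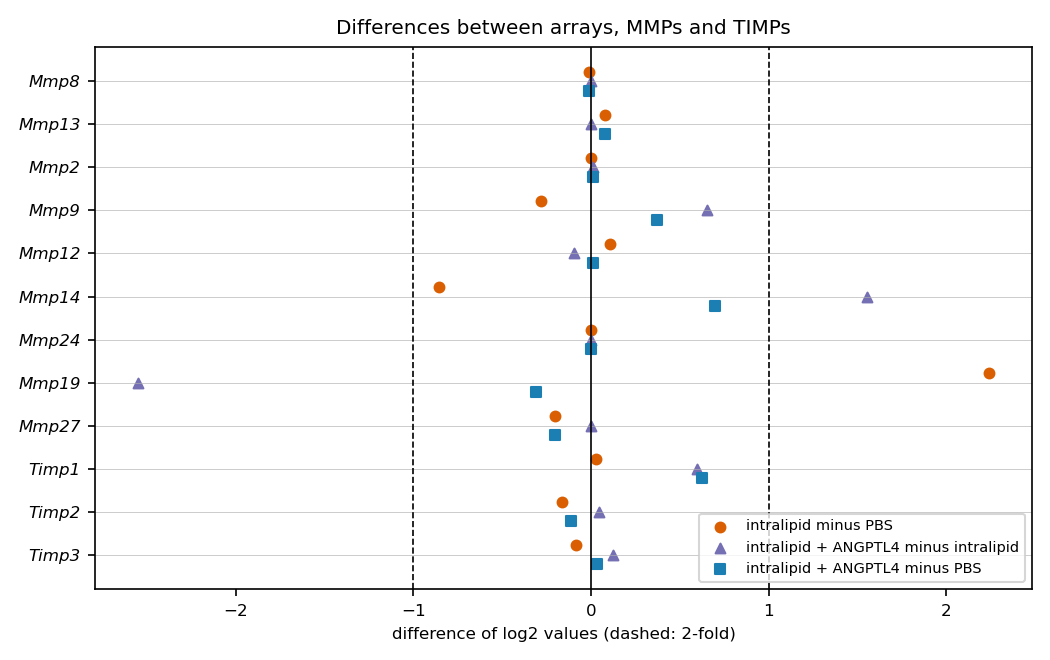
Differences of log2 values between arrays (horizontal axis) for the 9 MMPs and 3 TIMPs at or past the floor, with 1 symbol for each of the 3 comparisons and dashed lines at 2-fold. Only Mmp19 and Mmp14 cross a dashed line, at 2.24 and -2.55 for Mmp19 and at 1.56 for Mmp14.

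The gelatinases cut denatured collagen and basement membrane collagen IV. Mmp9 (gelatinase B, probe set 10478633) read 6.65 with PBS, 6.37 with intralipid and 7.02 with ANGPTL4, the same order of arrays as Mmp14. With ANGPTL4 it stood 1.57-fold above intralipid alone, which ranked 686th from the highest of 10064 genes. Mmp2 (gelatinase A), for which fibroblasts are a well-known source, read 6.12, 6.12 and 6.14 in that order of arrays.

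Mmp12, the macrophage metalloelastase that cuts elastin, read 12.78 with PBS, 12.89 with intralipid and 12.79 with ANGPTL4. Its range of 0.11 was small beside those of Mmp19 and Mmp14. Of the collagenases, which make the first cut in fibrillar collagen, Mmp8 read 8.00, 7.98 and 7.98, and Mmp13 read 6.71, 6.79 and 6.79. Both were flat, with ranges of at most 0.08. Mmp8 is best known from neutrophil granules, and the markers of that cell type are given above. Mmp27 read 7.89, 7.69 and 7.69, so the PBS array was the highest. The other collagenases, Mmp1a and Mmp1b, and the stromelysins Mmp3 (2.88, 2.93 and 2.89), Mmp10 and Mmp11 stayed below the floor, as did the matrilysin Mmp7. In all, 13 MMPs lay below the floor on every array, at 2.30 to 4.88 with ranges of at most 0.09, and 11 of these were identical on all arrays.

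Of the inhibitors, Timp1 moved and the others moved little. Timp1 (probe set 10598976), a secreted inhibitor that also binds the precursor of Mmp9 and blocks Mmp14 poorly, read 8.09 with PBS, 8.12 with intralipid and 8.72 with ANGPTL4. The PBS and intralipid arrays lay within 0.03 of each other, and the ANGPTL4 array was 1.51-fold above intralipid and 1.54-fold above PBS. Timp1 ranked 215th from the highest of 9995 genes for ANGPTL4 against PBS, and 811th of 10064 for ANGPTL4 against intralipid. Timp2, the partner of Mmp14 in activating Mmp2, read 11.05, 10.89 and 10.94, a range of 0.16. Timp3, which binds to the matrix and also inhibits Adam17, read 7.55, 7.46 and 7.58. Timp4 was below the floor, at 2.95 on each array. Mmp14 and its inhibitor Timp2 thus differed in range, 1.56 against 0.16.

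**Figure D3:**
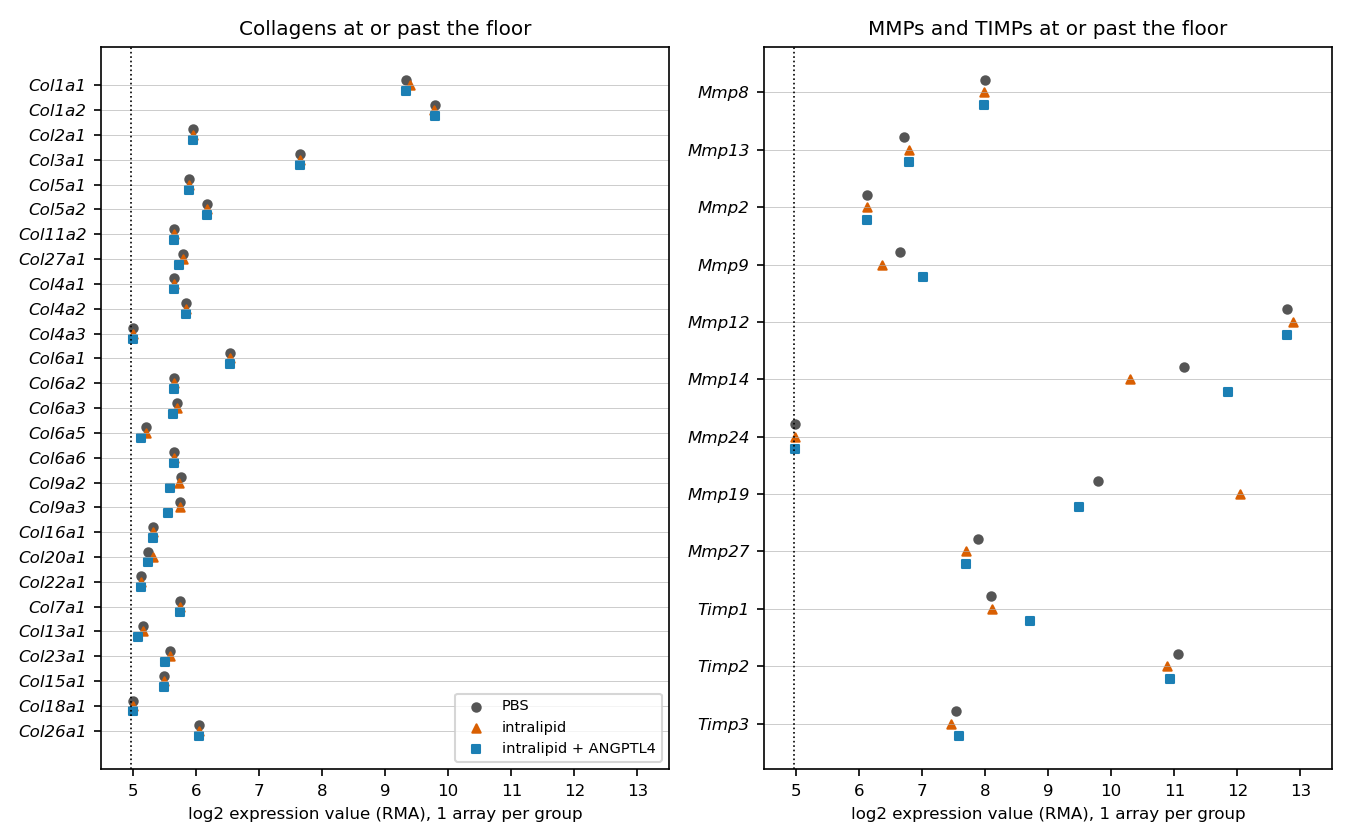
Log2 expression values (horizontal axis) on the PBS, intralipid and intralipid plus ANGPTL4 arrays for the 27 collagens (left) and the 12 MMPs and TIMPs (right) at or past the floor (dotted line), ordered by role. The 3 symbols overlap for collagens such as Col1a2 (9.79, 9.77 and 9.79) and lie apart for Mmp19, Mmp14, Mmp9 and Timp1.

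The fibrillar collagens form the tensile fibres of connective tissue. Col1a1 (probe set 10380419) read 9.33 with PBS, 9.40 with intralipid and 9.33 with ANGPTL4. Col1a2, the partner chain of collagen I, read 9.79, 9.77 and 9.79. Col3a1 read 7.65 on each array. The widest range among these chains was 0.07, in Col1a1. Of the other fibrillar chains, Col5a2 (6.18), Col5a1 (5.89), Col2a1, the cartilage collagen (5.95), and Col11a2 (5.65) were identical throughout, and Col27a1 read 5.79, 5.79 and 5.74. Col5a3, Col11a1 and Col24a1 stayed below the floor.

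The 8 collagens taken as stromal (Col1a1, Col1a2, Col3a1, Col5a1, Col5a2, Col6a1, Col6a2 and Col6a3) all reached the floor, 5 of them with identical values, and none of their differences exceeded 0.08 in size. The 6 MMPs taken as macrophage proteases (Mmp8, Mmp9, Mmp12, Mmp13, Mmp14 and Mmp19) also all reached the floor, 0 of them with identical values, and their differences ran from -2.55 to 2.24. Both lists were drawn up from general knowledge of where these genes are expressed, but with earlier results of these data known. The contrast between them is therefore a description and no independent support. Left off the protease list were Mmp2, Mmp24 and Mmp27, which also reached the floor and had ranges of at most 0.20. The arrays do not show which cells of a culture made a transcript. Of the 5 fibroblast markers other than collagens past the floor, 3 had a range under 0.1. Sparc (0.17) and Pdgfra (0.28) had wider ones, beside a median range of 0.15 over all genes past the floor. Dcn, a proteoglycan of collagen fibres, read 8.51 on each array, Sparc read 9.04, 8.87 and 9.02, and Pdgfra read 7.66, 7.38 and 7.48. Taken to the linear scale and summed over all 12, the fibroblast markers came to 1755 with PBS, 1667 with intralipid and 1701 with ANGPTL4. The smooth muscle marker Acta2, also a marker of contractile fibroblasts, differed more, with 9.39, 8.75 and 9.40. The 7 smooth muscle and pericyte markers, of which Myh11, Cnn1, Rgs5 and Cspg4 lay below the floor, summed to 894, 654 and 909. Tagln read 6.84, 6.84 and 6.96, and Des read 5.39 on each array. The lower sum with intralipid than with PBS thus came from Acta2 alone.

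In the basement membrane, whose sheet is built on collagen IV, Col4a1 (5.65), Col4a2 (5.84) and Col4a3 (5.00) were identical on every array, and Col4a4, Col4a5 and Col4a6 stayed below the floor. Collagen VI, which forms beaded filaments around cells, had 5 of 6 chains past the floor. Col6a1 (6.55), Col6a2 (5.65) and Col6a6 (5.65) were identical on each array, and Col6a3 (5.71, 5.71 and 5.63) and Col6a5 (5.21, 5.21 and 5.13) were lower on the ANGPTL4 array by 0.08. Col6a4 was below the floor.

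The fibril-associated collagens decorate the surface of larger fibrils, and they held the widest ranges among collagens past the floor. Col9a3 read 5.76, 5.76 and 5.57, and Col9a2 read 5.76, 5.73 and 5.59, so for both the ANGPTL4 array was the lowest. Col16a1 (5.32) and Col22a1 (5.13) were identical, and Col20a1 read 5.25, 5.32 and 5.25. The anchoring collagen Col7a1 (5.75), the multiplexins Col15a1 (5.49) and Col18a1 (5.00) and Col26a1 (6.05) were identical as well. The transmembrane collagens Col13a1 (5.17, 5.17 and 5.09) and Col23a1 (5.59, 5.59 and 5.51) were again lowest with ANGPTL4. Across all 27 collagens, 9 were lower with ANGPTL4 than with intralipid alone, 1 was higher and 17 had a difference of 0, and the largest size was 0.19. Over all genes past the floor, of every level, 2323 were lower in that comparison, 4669 higher and 3098 at 0. Of the 9 lower collagens, only Col9a2 and Col9a3 differed by 0.1 or more in size. The 1 higher, Col1a2, differed by 0.02 and turned sign under other scaling. The 17 collagens below the floor read between 3.79 and 4.95. Their widest range was 0.25, in Col8a2, a network-forming collagen (4.39, 4.59 and 4.35).

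Of the MMP genes, 10 lie side by side on mouse chromosome 9 in the RefSeq annotation, with no other protein-coding gene between them, in the order Mmp13, Mmp12, Mmp1b, Mmp3, Mmp1a, Mmp10, Mmp8, Mmp27, Mmp20 and Mmp7. On these arrays, 4 of the 10 reached the floor (Mmp13, Mmp12, Mmp8 and Mmp27), beside 10090 of all 19938 genes. The widest range among these 4 was 0.20, in Mmp27. Mmp19 and Mmp14, the members 2-fold apart, lie elsewhere, on chromosomes 10 and 14. Promoters of MMP genes are known for AP-1 elements, bound by Fos and Jun proteins. The letters TGANTCA, which read the same on both strands, were therefore searched in RefSeq's promoter windows (GRCm38.p6, 250 bases before to 50 after the transcription start), available for 56 of the 70 members. Of all 32851 windows, 7.81% held the element, and of the 27025 genes with a window, 8.97% had it in at least 1. It was present for 8 of the 10 genes of the cluster, all but Mmp8 and Mmp27, for 0 of 7 other MMPs, for 0 of 4 TIMPs and for 1 of 35 collagens (Col6a1). Members without a window included Mmp19, Mmp9, Mmp2 and Col1a1.

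The windows around the element are shown 5′ to 3′ on the gene's strand, with the element in capitals, to set Mmp12 and Mmp13, the cluster genes past the floor that held it, beside their neighbours below the floor and beside Col6a1.
Mmp13, chr9:7272464-7272500, + strand: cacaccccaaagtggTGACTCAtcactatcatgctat
Mmp12, chr9:7347315-7347351, + strand: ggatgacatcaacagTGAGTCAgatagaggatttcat
Mmp3, chr9:7445761-7445797, + strand: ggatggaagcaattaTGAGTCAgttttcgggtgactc
Mmp10, chr9:7502264-7502300, + strand: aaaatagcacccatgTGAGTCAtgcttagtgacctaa
Mmp1a, chr9:7464053-7464089, + strand: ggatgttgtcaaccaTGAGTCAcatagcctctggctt
Mmp1b, chr9:7388098-7388134, - strand: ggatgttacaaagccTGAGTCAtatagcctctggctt
Col6a1, chr10:76726113-76726149, - strand: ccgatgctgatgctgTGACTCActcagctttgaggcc

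The element began 35 bases before the start in Mmp13, 44 in Mmp12, 46 in Mmp3, 63 in Mmp10 and Mmp7, 73 in Mmp1a, 93 in Mmp1b and 95 in Mmp20, and 90 in Col6a1. Mmp12 has 2 windows, of which 1 held it. A match is a stretch of letters and does not show that a factor was bound. Of the 8 cluster genes with the element, 2 reached the floor, beside 10090 of all 19938 genes. Neither of these 2 was 1.5-fold apart in any comparison. For Mmp14 and Timp1, which were both highest on the ANGPTL4 array, the letters were not in the window. Their last 100 bases before the start are shown for comparison.
Mmp14, chr14:54431498-54431597, + strand: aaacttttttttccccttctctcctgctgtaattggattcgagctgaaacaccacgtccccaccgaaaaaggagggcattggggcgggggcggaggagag
Timp1, chrX:20870066-20870165, + strand: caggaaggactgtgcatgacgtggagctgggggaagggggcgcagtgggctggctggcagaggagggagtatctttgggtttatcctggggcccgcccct

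**Figure D4:**
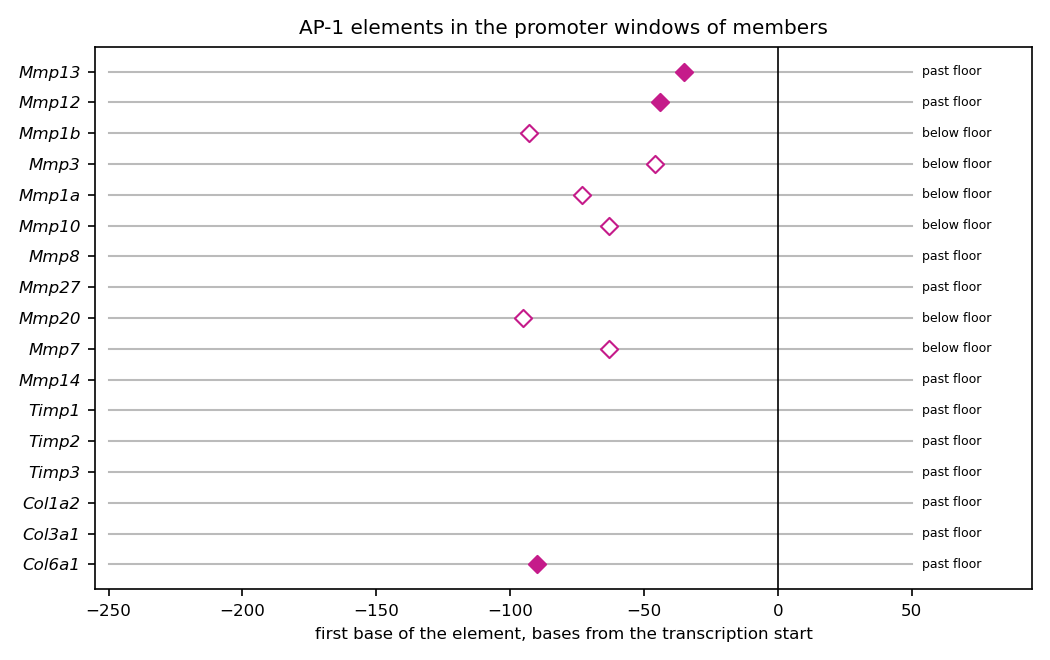
Position of TGANTCA in the promoter windows (grey lines, 250 bases before to 50 after the start at 0) of the 10 chromosome 9 MMP genes in their genomic order and of 7 further members. Filled diamonds mark genes past the floor and open diamonds genes below it, and the elements lie between 95 and 35 bases before the start.

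Other genes of the pathway were set beside the members. Collagen-processing genes hydroxylate, fold, trim and cross-link collagen chains. Of 28 measured, 20 reached the floor, 7 of these were identical on all arrays, and 1 was 2-fold apart in at least 1 comparison, beside 5.92% of all 10090 genes past the floor. This was Crtap, a component of the prolyl 3-hydroxylase complex, which read 8.57 with PBS, 7.52 with intralipid and 8.38 with ANGPTL4, and so was lowest with intralipid. The collagen chaperone Serpinh1, which binds procollagen, read 6.32 on each array.

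Of 15 other matrix proteins measured, 13 reached the floor, and 2 of these were 2-fold apart in at least 1 comparison, beside the same 5.92% of all genes. Thbs1, a matricellular glycoprotein, read 10.88, 12.97 and 9.95, with the intralipid array highest as for Mmp19. Tgfbi, which binds collagen and integrins, read 9.54, 8.44 and 11.32, with the intralipid array lowest and the ANGPTL4 array highest as for Mmp14. Tgfbi was also above PBS with ANGPTL4, by 1.78.

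Of 20 other matrix proteases, inhibitors and receptors measured, 16 reached the floor and 3 were 2-fold apart in at least 1 comparison, again beside 5.92%. Adam17, the sheddase that releases tumour necrosis factor, read 10.59, 9.72 and 11.29. Its differences of -0.87, 1.57 and 0.70 stood beside -0.86, 1.56 and 0.70 for Mmp14 in the same comparisons. Serpinb2, an inhibitor of plasminogen activators, read 7.41, 8.83 and 8.03, and Adamts1, a protease of proteoglycans, read 4.99, 6.11 and 4.79. Both were highest with intralipid, and Adamts1 fell below the floor with ANGPTL4. Of the 16 measured genes for collagen receptors, uptake and lysosomal breakdown, 12 reached the floor and 0 were 2-fold apart, beside 5.92%, with differences from -0.81 to 0.64.

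**Figure D5:**
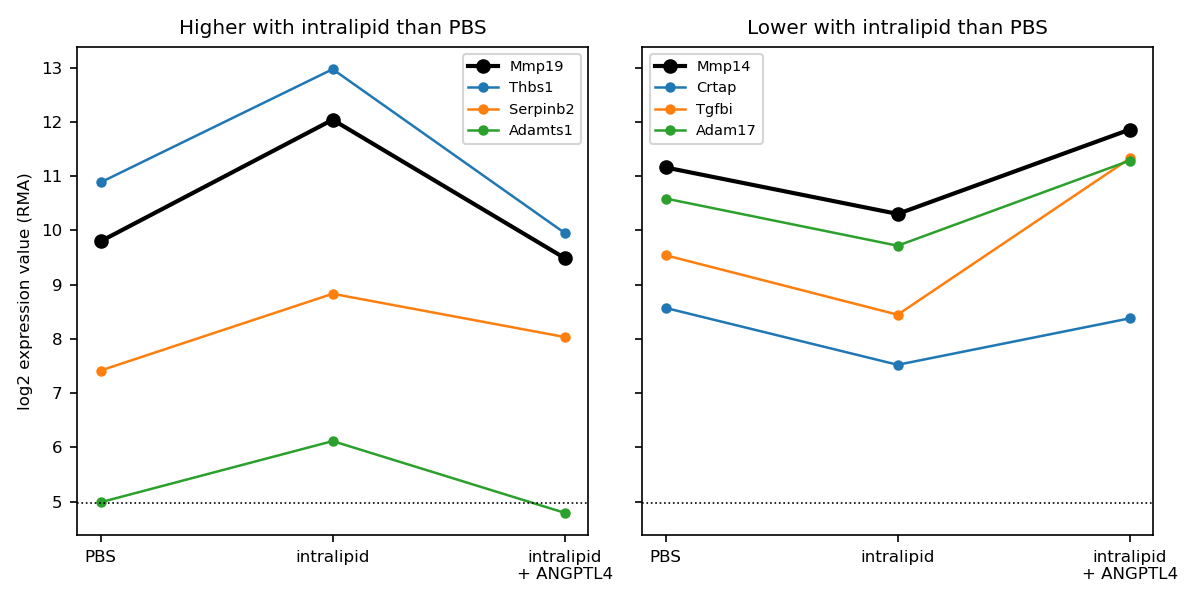
Log2 expression values (vertical axis) on the PBS, intralipid and intralipid plus ANGPTL4 arrays for Mmp19 and Mmp14 (black) and the pathway genes 2-fold apart in at least 1 comparison, split by whether intralipid read above PBS (left) or below it (right); the dotted line is the floor, and lines only join the values of a gene. Thbs1 peaks on the intralipid array at 12.97, as Mmp19 does at 12.04, and Adam17 runs nearly parallel to Mmp14.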

How the data were processed

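RNA from 3 groups was measured on 1 array each, with 3 samples pooled per array. The authors deposited log2 expression values per probe set, made with RMA per the submitters' processing notes; its version, the chip definition and the build were not given in the sources used. RMA normalizes the arrays to each other, so a shift shared by most genes would not be seen. Of 35556 probe sets, 21789 had 1 symbol in GEO's platform annotation, 1621 several and 12146 none. Genes were taken from probe sets with 1 symbol, and the one with the highest mean was used where a gene had several, which among members concerned Col6a5 and Col6a6. Mmp15 had no such probe set. Values were used as deposited.

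A gene was called where 2 arrays differed by at least 2-fold and the higher reached the floor; no test was run, and the number of arrays limits the precision. Tables were computed in Python 3.11.15 (numpy 2.4.6, pandas 2.3.3), with cyclic loess from limma 3.58.1. All members past the floor were named, and of each pathway list the genes 2-fold apart. The alternatives tried were calls at 1.5-fold and 3-fold, no floor or a floor at the 75th percentile, centring, quantile and cyclic loess normalization, other choices of probe set and probe sets with several symbols. Members and lists were chosen with earlier results of these data known.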

Additional observations from a re-analysis of the deposited data

How the results depend on the processing

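At 1.5-fold, 1 member instead of 0 was lower with intralipid than with PBS, 3 instead of 1 were higher with ANGPTL4 than with intralipid, and 2 instead of 0 were higher with ANGPTL4 than with PBS; at 3-fold, 0 were higher with ANGPTL4 than with intralipid. With no floor, all 44 collagens and 22 MMPs counted as past it, and with the floor at the 75th percentile 3 collagens (Col1a1, Col1a2 and Col3a1) and 5 MMPs did. The other 82 recomputed counts of members stayed within 1.5 times; with the mean or the lowest of a gene's probe sets, 25 collagens instead of 27 were past the floor (without Col6a5 and Col6a6). Under the 6 alternatives of scaling and probe set, the difference of Mmp19 ran from 2.20 to 2.25 for intralipid against PBS and from -2.57 to -2.55 for ANGPTL4 against intralipid, and that of Mmp14 from 1.54 to 1.58 in the latter. Of 21 differences of named members of at least 0.1 in size, 0 turned sign under them. Of 32 smaller ones other than 0, 8 turned sign, such as those of Timp1 and Mmp8 for intralipid against PBS. The order of arrays that lie so close together is therefore not settled. Among members, the mean or the lowest probe set could change only Col6a5 and Col6a6. No paired analysis was possible because each group had 1 array, and no array could be left out.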
